A study of Mus musculus with 4 samples.

Results

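The hypoxia response and glycolysis genes are a group of 33 mouse genes chosen by name. They comprise the hypoxia-inducible factor (HIF) alpha subunits and the hydroxylases that act on them, the glucose transporter and enzymes that lead from glucose to lactate, and well-known HIF target genes. All 33 were found among the 25413 genes of the deposited count table, and 32 had enough reads to be tested among 12478 genes. The remaining member, Epas1, which encodes HIF-2 alpha, had 0 counts in both controls, 1 in PM2.5 replicate 1 and 0 in PM2.5 replicate 2. RNA was sequenced from EpH4, a mouse mammary epithelial cell line of wild-type (WT) genotype grown in 2D culture. There were 2 libraries from untreated Control cells and 2 from cells that received PM2.5, fine airborne particles. Neither the particle dose nor the exposure time is stated in the labels, and all 4 libraries carry 1 batch value. Nothing in the labels says that replicates came from separate cultures, so p-values measure only how far these samples spread, and that spread may be technical.

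When oxygen is plentiful, EGLN prolyl hydroxylases mark HIF alpha subunits for degradation, so the HIF pathway is controlled largely at the protein level, which RNA-seq does not measure. When oxygen is short, or when the hydroxylases are otherwise slowed, HIF alpha pairs with ARNT and binds short DNA elements near target genes. Those targets increase glucose uptake and glycolysis, hold pyruvate back from the mitochondria, buffer acid at the cell surface and promote blood vessel growth. Mammary epithelium uses the same pathway in the lactating gland and in tumors.

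Total counts were 19562930 and 26206329 in Control replicates 1 and 2, and 20232277 and 18548478 in PM2.5 replicates 1 and 2. Mitochondrial transcripts took 4.65% to 4.81% of counts. The epithelial label was checked against 13 epithelial markers, of which 6 (Epcam, Cldn4, Esrp1, Krt18, Krt19 and Krt5) were at 0 in all 4 libraries and 12 averaged under 1 CPM, counts scaled to library size. Their summed level was 51.3 to 53.5 CPM in Control and 20.2 to 21.6 CPM in PM2.5 libraries, nearly all of it Krt14. The 9 fibroblast or mesenchymal markers summed to 4740 to 4949 CPM in Control and 3877 to 4038 CPM in PM2.5 libraries, mostly Col1a2 and Vim. Their members were split. Col1a2, Vim and Pdgfrb were lower in both PM2.5 libraries than in both controls, and Dcn, Col3a1, Col1a1 and Pdgfra were higher. Pdgfra stood at 205 and 214 CPM in the controls and at 217 and 234 CPM in the PM2.5 libraries, and did not pass the test used below. Dcn stood at 44.1 and 83.7 CPM in the controls and at 221 and 280 CPM in the PM2.5 libraries. Leukocyte markers (7 genes) summed to 9.04 to 10.1 against 15.8 to 17.7 CPM, mostly Cd68 and Lyz2. Adipocyte markers (4 genes) summed to 0.526 to 0.698 against 4.32 to 5.91 CPM, mostly Fabp4. Endothelial markers (5 genes) summed to 0.504 to 1.05 against 0.436 to 0.843 CPM. The part of these marker differences in the results below was not tested.

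The hypoxia response and glycolysis genes that passed the test differed between PM2.5 and Control libraries in both directions. Transcripts of the collagen hydroxylase P4ha2, the pyruvate dehydrogenase kinase Pdk1, the angiogenic factor Vegfa and the fructose-2,6-bisphosphate enzyme Pfkfb3 were higher in PM2.5 libraries, by 1.28-fold to 1.97-fold. Transcripts of Hif1a itself, the vasodilator peptide Adm, the enolase Eno1 and the histone demethylase Kdm3a were lower, by 1.15-fold to 1.47-fold. The most uneven libraries were the 2 controls: Car9, a cell-surface carbonic anhydrase widely used as a marker of HIF activity, stood 12.1-fold higher in Control replicate 2 than in Control replicate 1. In bulk RNA, fewer cells with a transcript and less transcript per cell cannot be told apart.

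Of the 32 members tested, edgeR's quasi-likelihood test with Benjamini-Hochberg adjustment called 4 higher and 4 lower in PM2.5 libraries at an adjusted p of 0.05. The 8 calls are 25% of the members tested, beside 39.6% of all genes tested called in either direction. Each count of 4 is 12.5% of the members tested, beside 19.2% of all genes tested called higher and 20.4% called lower. With libraries scaled by size only, the members split into 4 higher and 2 lower, and all genes into 3090 higher and 1889 lower, against 2399 and 2540 with the trimmed-mean (TMM) scaling used here. The median log2 fold change was 0.054 for the 32 members and 0.00627 for all genes tested. Both PM2.5 libraries lay above both controls for 4 members (12.5%, beside 35.9% of all genes) and below both for 6 members (18.8%, beside 35.1%). Both PM2.5 libraries lay between the controls for 9 members (28.1%), while 7.24% of all genes tested had this order.

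**Figure D1:**
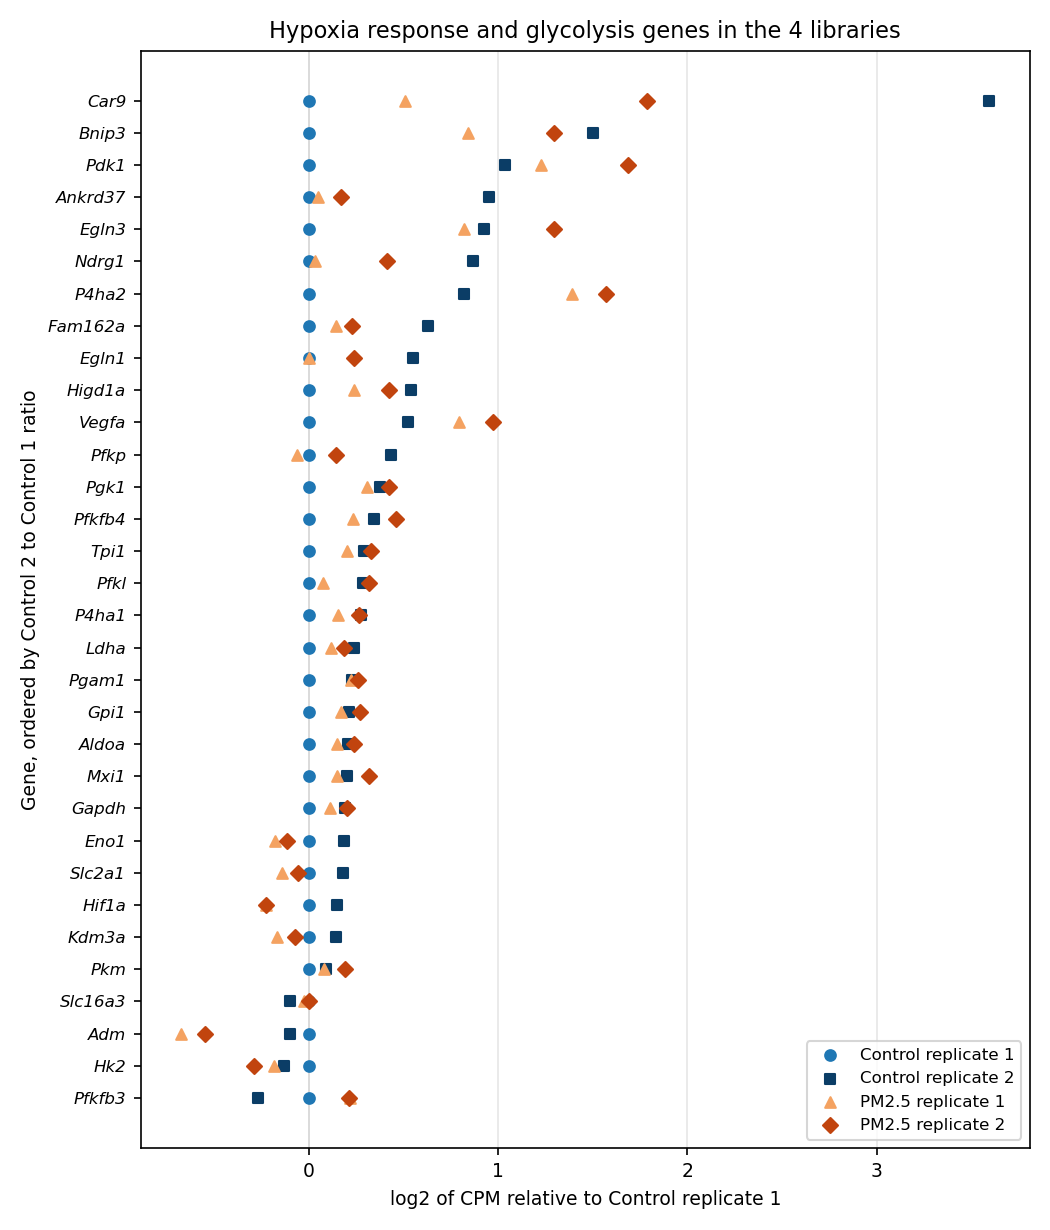
Level of each tested member in each library as the log2 of its CPM over that of Control replicate 1 (x axis), with genes on the y axis ordered by the ratio of the controls and symbols for the 4 libraries. Control replicate 2 is the highest library for Car9, Bnip3, Ndrg1 and Fam162a, while both PM2.5 libraries are the highest for P4ha2, Pdk1 and Vegfa.

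Among the regulators, Hif1a, the oxygen-regulated alpha subunit (GRCm39 chr12:73948149-73994304, plus strand), was at 457 and 506.5 CPM in Control replicates 1 and 2 and at 391.5 and 391.6 CPM in PM2.5 replicates 1 and 2. Both PM2.5 libraries lay below both controls. The fall was -0.30 on the log2 scale (SE 0.061, edgeR adjusted p = 0.00328), or 1.23-fold. Set against the median change of its 25 tested neighbours on each side along the chromosome, which was -0.15, the difference was -0.15 with adjusted p = 0.0932, and over all alternatives run adjusted p ranged from 5.127e-05 to 0.0932. Hif1a was nearly the only HIF alpha transcript present: per length, it supplied 100% of the summed RPKM of Hif1a, Epas1 and Hif3a in both controls.

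The hydroxylases that act on HIF alpha are themselves HIF targets in many cells. Egln3 stood at 21.4 and 40.6 CPM in the controls and at 37.8 and 52.5 CPM in the PM2.5 libraries, so that PM2.5 replicate 1 fell below Control replicate 2 and the groups overlapped. Its log2 fold change was 0.51 (SE 0.229, adjusted p = 0.099). Egln1, the main oxygen sensor of the family, stood at 92.6 and 136 CPM in the controls and at 92.6 and 109 CPM in the PM2.5 libraries (log2 fold change -0.18, adjusted p = 0.329). Control replicate 2 was the highest library for Egln1, and PM2.5 replicate 2 was the highest for Egln3. Per length, Egln3 made up 12.5% and 18.8% of the summed RPKM of Egln1, Egln2 and Egln3 in the controls and 21.04% and 24.9% in the PM2.5 libraries.

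The 2 secreted factors of the group moved in opposite directions. Vegfa, vascular endothelial growth factor A (GRCm39 chr17:46327919-46343295, minus strand), was at 49.7 and 71.5 CPM in the controls and at 86.3 and 97.6 CPM in the PM2.5 libraries. It was higher in both PM2.5 libraries than in either control, by 0.59 on the log2 scale (SE 0.132, adjusted p = 0.00518), or 1.51-fold. Adm, the precursor of the vasodilator peptide adrenomedullin (GRCm39 chr7:110226868-110229027, plus strand), was at 17.5 and 16.3 CPM in the controls and at 11.0 and 12.0 CPM in the PM2.5 libraries. Both PM2.5 libraries were below both controls, and the log2 fold change was -0.56 (SE 0.111, adjusted p = 0.00284). The Vegfa call was lost with DESeq2 (adjusted p = 0.0902, the highest of a range that began at 9.604e-07), whereas the Adm call passed under every alternative run, with adjusted p between 0.000662 and 0.0212.

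Most of the chain from glucose uptake to lactate did not pass the test. Of its 13 members from the glucose transporter Slc2a1 to the lactate dehydrogenase Ldha, 1 passed the test, Eno1, which fell, beside 39.6% of all genes called in either direction and 20.4% called lower. The 12 enzymes from Hk2 to Ldha summed to 10098 and 11605 CPM in the controls and to 11028 and 11777 CPM in the PM2.5 libraries. That sum was 0.982% and 1.14% of all counts in the controls and 1.12% and 1.20% in the PM2.5 libraries, so Control replicate 1 was the lowest library and the groups overlapped.

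At the entry to the chain, Slc2a1, the glucose transporter GLUT1, stood at 52.8 and 59.9 CPM in the controls and at 47.9 and 50.9 CPM in the PM2.5 libraries. Hk2, an inducible hexokinase that traps glucose in the cell, stood at 64.0 and 58.6 CPM in the controls and at 56.4 and 52.4 CPM in the PM2.5 libraries. For both genes the PM2.5 libraries lay below both controls, but neither passed the test (-0.19 with adjusted p = 0.0718 for Slc2a1 and -0.17 with adjusted p = 0.089 for Hk2, on the log2 scale). Hk2 made up 21.1% to 23.4% of hexokinase RPKM in the controls and 18.8% to 20.6% in the PM2.5 libraries, the rest being nearly all Hk1. Among the phosphofructokinases, which catalyse the committed step, Pfkl differed by 0.05 (adjusted p = 0.719) and Pfkp by -0.20 (adjusted p = 0.226) on the log2 scale.

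The 8 enzymes of the middle and end of the chain other than Eno1 (Gpi1, Aldoa, Tpi1, Gapdh, Pgk1, Pgam1, Pkm and Ldha) had log2 fold changes between 0.03 and 0.17 and adjusted p between 0.218 and 0.81. In each of the 8, Control replicate 1 was the lowest of the 4 libraries. Pgk1, an ATP-producing kinase of the chain, had 922 and 1197 CPM in the controls and 1143 and 1236 CPM in the PM2.5 libraries, the widest gap between controls of the 8. Pkm, pyruvate kinase, was the most abundant member of the whole group on the CPM scale, at 3090 and 3300 CPM in the controls and 3266 and 3535 CPM in the PM2.5 libraries. Ldha, which turns pyruvate into lactate, had 1345 and 1585 CPM in the controls and 1458 and 1529 CPM in the PM2.5 libraries, so both PM2.5 libraries fell between the controls.

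Eno1, alpha-enolase (GRCm39 chr4:150321178-150333336, plus strand), was at 608 and 692 CPM in the controls and at 539 and 562 CPM in the PM2.5 libraries. Its log2 fold change was -0.24 (SE 0.068, adjusted p = 0.0171). The median change of its tested neighbours was -0.17, and set against it the difference was -0.07 with adjusted p = 0.44, within a range of 0.000529 to 0.815 over the alternatives. Eno1b, a near-identical copy on chromosome 18 that can share its reads, held 62.8% to 64.2% of enolase RPKM in the 4 libraries, so the split of reads between the copies is uncertain. Summed over both copies, a choice made after seeing the data, the log2 fold change was -0.27 (adjusted p = 0.0142).

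Of the regulators of the chain, Pfkfb3, a bifunctional enzyme that makes the phosphofructokinase activator fructose-2,6-bisphosphate, stood at 17.4 and 14.5 CPM in the controls and at 20.3 and 20.2 CPM in the PM2.5 libraries. It was the 1 called member that was lower in Control replicate 2 than in Control replicate 1 and higher in both PM2.5 libraries, by 0.35 on the log2 scale (SE 0.111, adjusted p = 0.0265). The call was lost without Control replicate 2 (adjusted p = 0.183), without either PM2.5 library, with DESeq2 (adjusted p = 0.1455), with no filter on low counts and with limma-trend on RPKM, in a range from 0.00444 to 0.183. For its relative Pfkfb4 the log2 difference was 0.15 (adjusted p = 0.429). Slc16a3, which encodes the lactate exporter MCT4, had only 15 and 19 counts in the controls and 16 and 15 in the PM2.5 libraries, and per length Slc16a1 held 99.6% of monocarboxylate transporter RPKM in both controls.

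Pdk1 inhibits pyruvate dehydrogenase and so diverts pyruvate from the mitochondria (GRCm39 chr2:71703568-71734202, plus strand). It was at 26.9 and 55.1 CPM in the controls and at 62.8 and 86.6 CPM in the PM2.5 libraries. The groups did not overlap, although the controls differed 2.05-fold from each other. Its log2 fold change was 0.84 (SE 0.243, adjusted p = 0.019), and the call was lost with DESeq2 (adjusted p = 0.263), with no filter on low counts (adjusted p = 0.0644) and with limma-trend on RPKM, over a range from 8.717e-07 to 0.263. Per length, Pdk1 made up 17.3% and 28.3% of the summed RPKM of the 4 pyruvate dehydrogenase kinases in the controls and 29.0% and 36.0% in the PM2.5 libraries. The share of Pdk3, the most abundant of the 4, was 67.6% and 58.6% in the controls and 52.6% and 46.3% in the PM2.5 libraries.

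None of the 3 mitochondrial members passed the test. Bnip3, a receptor that marks mitochondria for removal by autophagy (GRCm39 chr7:138492565-138511248, minus strand), was at 40.2 and 114 CPM in the controls and at 72.0 and 99.0 CPM in the PM2.5 libraries. Both PM2.5 libraries thus lay between the controls, which differed 2.84-fold, and the log2 fold change was 0.13 (SE 0.332, adjusted p = 0.792). Fam162a, a mitochondrial protein linked to cell death under low oxygen, was at 58.8 and 91.1 CPM in the controls and at 65.0 and 69.0 CPM in the PM2.5 libraries. Higd1a, a small protein of the respiratory chain, was at 50.6 and 73.7 CPM in the controls and at 59.8 and 67.9 CPM in the PM2.5 libraries. For all 3 genes the order was the same, with Control replicate 1 lowest and Control replicate 2 highest.

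Car9 (GRCm39 chr4:43506966-43513729, plus strand) had the widest spread of all members. It held 72 and 1180 counts in the controls and 111 and 248 in the PM2.5 libraries, or 3.79 and 45.8 CPM against 5.38 and 13.1 CPM. With a control mean of 24.8 ± 29.7 CPM (SD, n = 2) and a PM2.5 mean of 9.22 ± 5.44 CPM (SD, n = 2), the log2 fold change of -1.52 (SE 0.738, adjusted p = 0.128) did not pass the test. Its size rested on Control replicate 2: without that library the log2 fold change was 1.26, and without Control replicate 1 it was -2.33. The PM2.5 libraries also differed from each other, by 2.43-fold, and Car9 was the 1 member past 1.5-fold there (3.12% of the members tested, beside 2.29% of all genes at 1.5-fold and 0.649% at 2-fold).

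The collagen prolyl 4-hydroxylases modify new collagen chains so that they form stable helices. P4ha2 (GRCm39 chr11:53990921-54022491, plus strand) was at 9.62 and 17.0 CPM in the controls and at 25.2 and 28.6 CPM in the PM2.5 libraries. It had the largest rise of the group, 0.98 on the log2 scale (SE 0.189, adjusted p = 0.00236), or 1.97-fold, and passed under every alternative run, with adjusted p between 5.217e-07 and 0.0486. Its relative P4ha1 was at 103 and 125 CPM in the controls and at 115 and 123 CPM in the PM2.5 libraries (log2 fold change 0.06, adjusted p = 0.584). Per length, P4ha2 made up 10.3% and 14.6% of the summed RPKM of P4ha1, P4ha2 and P4ha3 in the controls and 20.8% and 21.8% in the PM2.5 libraries.

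Of the other HIF targets, Ndrg1, a stress-response protein, was at 72.3 and 132 CPM in the controls and at 74.0 and 96.4 CPM in the PM2.5 libraries, again between the controls (log2 fold change -0.27, adjusted p = 0.337). Ankrd37 had only 16 and 42 counts in the controls and 18 and 18 in the PM2.5 libraries. Kdm3a, a histone H3 lysine demethylase (GRCm39 chr6:71565956-71609974, minus strand), was at 74.7 and 82.6 CPM in the controls and at 66.4 and 71.0 CPM in the PM2.5 libraries. Its log2 fold change was -0.20 (SE 0.071, adjusted p = 0.0479), a value just under the threshold that ranged from 0.0119 to 0.264 over the alternatives. Mxi1, a repressor that opposes MYC, differed by 0.13 on the log2 scale (adjusted p = 0.298).

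**Figure D2:**
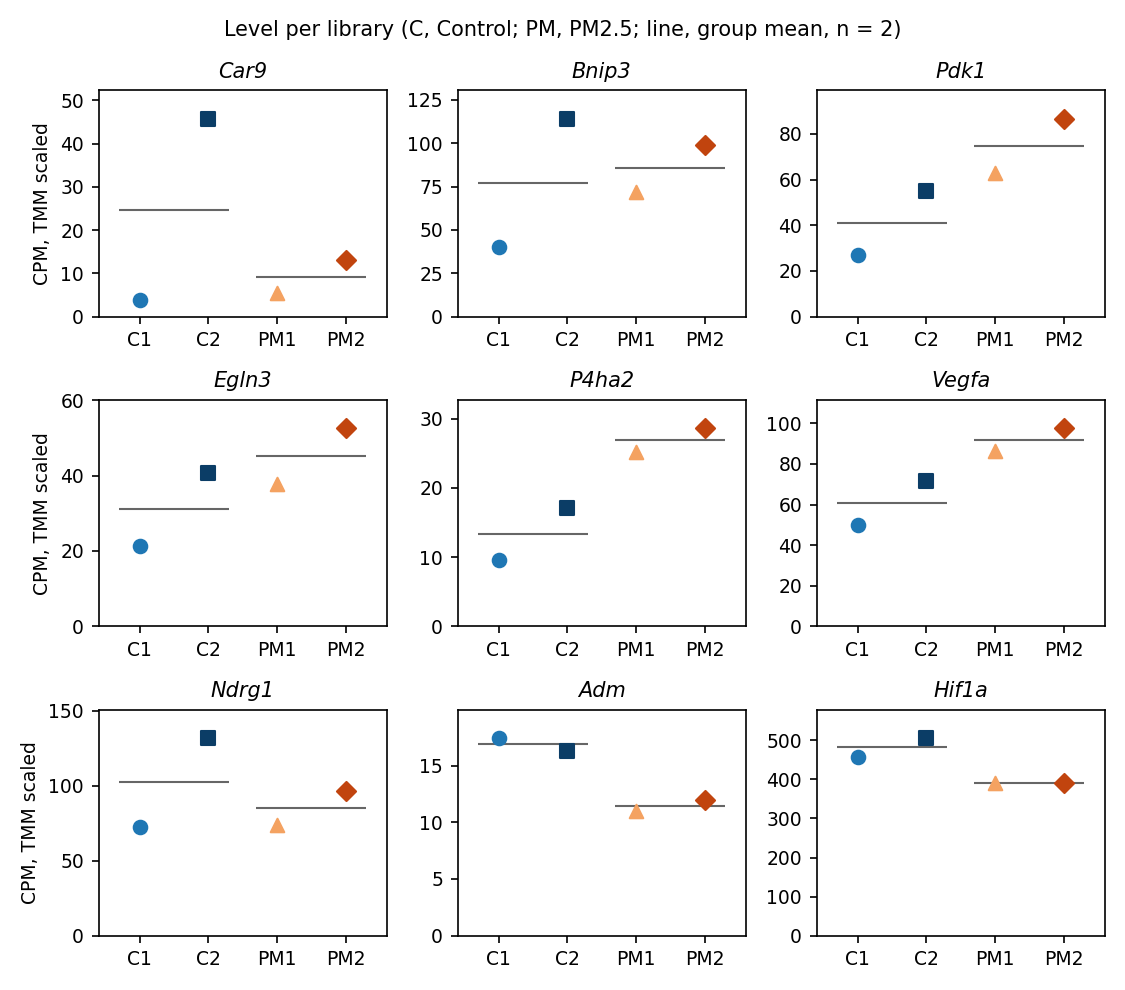
TMM-scaled CPM (y axis, from 0) of 9 members in Control replicates 1 and 2 (C1, C2) and PM2.5 replicates 1 and 2 (PM1, PM2), with 1 point per library and a line at each group mean (n = 2). Car9, Bnip3 and Ndrg1 peak in Control replicate 2 (45.8, 114 and 132 CPM), P4ha2, Pdk1 and Vegfa are higher in both PM2.5 libraries, and Adm and Hif1a are lower in both.

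The promoters of these genes were read from RefSeq (build GRCm38.p6) as the 250 bases before the most upstream start of each gene, to show which of them hold the short core that HIF binds. The cores searched were ACGTG and GCGTG on both strands, which appear as CACGT and CACGC when the match lies on the other strand; a pair of opposite ACGTG matches overlaps in the palindrome CACGTG. Capitals mark the matches in 6 members, written 5′ to 3′ on the strand of the gene and ending at the base before the start: the 3 that differed most between the controls (Car9, Bnip3, Pdk1), the member with the largest rise (P4ha2), and 2 glycolytic enzymes that did not pass the test (Hk2, Ldha).
Car9 (chr4:43506776-43507025, plus strand): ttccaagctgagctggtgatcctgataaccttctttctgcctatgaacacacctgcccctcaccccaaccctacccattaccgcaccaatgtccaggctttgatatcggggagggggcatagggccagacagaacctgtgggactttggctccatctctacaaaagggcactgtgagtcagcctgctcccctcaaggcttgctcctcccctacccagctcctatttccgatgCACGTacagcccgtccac
Bnip3 (chr7:138909507-138909756, minus strand): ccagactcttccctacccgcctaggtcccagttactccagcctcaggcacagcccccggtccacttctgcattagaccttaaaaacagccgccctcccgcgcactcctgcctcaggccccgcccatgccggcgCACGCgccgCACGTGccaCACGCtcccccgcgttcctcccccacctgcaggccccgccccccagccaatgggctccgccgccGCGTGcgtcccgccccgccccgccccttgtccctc
Pdk1 (chr2:71872974-71873223, plus strand): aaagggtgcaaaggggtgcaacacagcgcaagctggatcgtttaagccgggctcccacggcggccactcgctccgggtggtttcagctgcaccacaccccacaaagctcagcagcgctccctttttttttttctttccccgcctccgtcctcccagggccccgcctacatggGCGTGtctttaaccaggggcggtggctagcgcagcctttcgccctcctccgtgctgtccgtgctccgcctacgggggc
P4ha2 (chr11:54100674-54100923, plus strand): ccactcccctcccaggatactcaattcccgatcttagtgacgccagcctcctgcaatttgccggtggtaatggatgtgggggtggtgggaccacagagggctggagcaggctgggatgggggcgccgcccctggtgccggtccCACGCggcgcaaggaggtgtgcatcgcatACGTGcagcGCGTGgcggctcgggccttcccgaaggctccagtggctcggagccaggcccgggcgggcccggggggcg
Hk2 (chr6:82774455-82774704, minus strand): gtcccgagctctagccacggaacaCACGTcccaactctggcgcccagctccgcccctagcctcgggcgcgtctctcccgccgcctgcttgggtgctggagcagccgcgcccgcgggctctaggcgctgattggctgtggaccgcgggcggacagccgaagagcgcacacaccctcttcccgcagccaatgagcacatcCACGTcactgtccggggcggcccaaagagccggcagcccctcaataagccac
Ldha (chr7:46845554-46845803, plus strand): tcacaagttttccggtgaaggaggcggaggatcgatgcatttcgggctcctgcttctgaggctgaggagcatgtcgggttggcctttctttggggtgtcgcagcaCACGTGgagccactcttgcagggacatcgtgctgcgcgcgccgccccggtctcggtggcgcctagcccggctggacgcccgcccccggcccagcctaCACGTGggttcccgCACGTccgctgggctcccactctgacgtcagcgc

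Car9, with the widest spread between libraries, held 1 match, whose first base lay at -18 from the start. Pdk1 also held 1 match, at -78. Bnip3 and Ldha held 5 each, with every CACGTG counted as 2 matches, P4ha2 held 3 and Hk2 held 2. Promoters were found for 31 of the 33 members, all but Ndrg1 and Epas1. For 23 of the 31, the bases just after the start were found in a known transcript of the gene, so the other starts are less certain. Of the 31 members with a promoter, 25 (80.6%) held at least 1 match of either core, beside 38.6% of 27025 promoters of the same length. The members were named for this pathway in the first place. The 27025 promoters were of all genes in the reference, expressed here or not. They were not matched to the members for base content, and both cores contain CG. Vegfa, Gpi1, Aldoa, Tpi1, Pkm and Mxi1 held no match of either core. By core, 16 members (51.6%) held ACGTG, beside 16.5% of all promoters, and 17 (54.8%) held GCGTG, beside 28.3%. A match describes letters in this window and not a bound site.

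Because the controls stood apart, PM2.5 was also set against each control library alone, with the lone library assumed to vary like the PM2.5 pair. By the mean chi-square per gene between replicates, the controls lay further apart than that pair, at 7.2 in Control and 3.76 in PM2.5. This measure was taken on raw counts and can rise with depth, which was not evened out between the pairs. Bnip3, among the members that differed most between the controls, differed 2.84-fold there and 1.37-fold between the PM2.5 libraries. Adjusted p-values against a single control carry no spread between controls and may be too small. Against Control replicate 1 alone, edgeR called 13 of the 32 members higher (40.6%, beside 17.7% of all genes tested) and 3 lower (9.38%, beside 20.1%). Against Control replicate 2 alone, it called 4 higher (12.5%, beside 15.1% of all genes tested) and 11 lower (34.4%, beside 17.6%). Both comparisons share the PM2.5 libraries, so their counts are not independent of each other. Leaving out PM2.5 replicate 1 gave 4 members higher and 2 lower, beside 13.7% and 14.3% of all genes, and leaving out PM2.5 replicate 2 gave 3 higher and 4 lower, beside 11.7% and 12.6%.

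Only P4ha2, Pdk1 and Vegfa passed as higher against each control alone, and only Hif1a and Adm passed as lower against each, beside 12% and 14.3% of the 12778 genes tested against both. P4ha2 had log2 fold changes of 1.47 against Control replicate 1 (adjusted p = 5.217e-07) and 0.65 against Control replicate 2 (adjusted p = 0.000544). Pdk1 had 1.47 (adjusted p = 8.717e-07) and 0.43 (adjusted p = 0.0185), and Vegfa had 0.88 (adjusted p = 9.604e-07) and 0.36 (adjusted p = 0.00363). The rises of these 3 genes thus kept their direction against both controls, with sizes that depended on which control was used.

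In Hif1a the log2 fold change was -0.23 (adjusted p = 0.00539) against Control replicate 1 and -0.38 (adjusted p = 0.000173) against Control replicate 2. Adm had -0.62 (adjusted p = 0.00198) and -0.51 (adjusted p = 0.00723). The fall of Adm differed little between the controls, while that of Hif1a was larger against Control replicate 2. The ratio of Control replicate 2 to Control replicate 1 was 1.11 for Hif1a and 0.933 for Adm.

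Car9 and Bnip3 passed in opposite directions. Car9 was higher in PM2.5 libraries than in Control replicate 1 (log2 fold change 1.26, adjusted p = 0.0176) and lower than in Control replicate 2 (-2.33, adjusted p = 2.384e-06). Bnip3 likewise had 1.08 (adjusted p = 1.154e-05) and -0.42 (adjusted p = 0.0133). These 2 members were among 5 genes with this pattern of 12778 tested against both controls (0.0391%). No member passed the other way round, as lower than in replicate 1 and higher than in replicate 2, a pattern of 0.00783% of those genes.

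Other targets passed against a single control. With both controls, the median change of tested neighbours was -0.138 for Egln3, 0.0407 for Ndrg1, -0.255 for Fam162a and -0.313 for Egln1. It was 0.22 for Pgam1, 0.0461 for Pgk1, -0.0171 for Tpi1, -0.00116 for Gpi1 and 0.00013 for Aldoa. It was -0.0627 for Hk2, -0.128 for Slc2a1, 0.0243 for Pfkp and -0.167 for Eno1. How far the changes below were shared with neighbours was not tested against a single control. Egln3 passed as higher against replicate 1 (1.07, adjusted p = 4.209e-05), with 0.14 against replicate 2 (adjusted p = 0.442). Ndrg1, Fam162a and Egln1 passed as lower against replicate 2 (-0.64, -0.45 and -0.43, with adjusted p of 0.000301, 0.000279 and 0.00105), and had 0.23, 0.18 and 0.12 against replicate 1. Of the 13 members of the chain from Slc2a1 to Ldha, 5 (Gpi1, Aldoa, Tpi1, Pgk1 and Pgam1) passed as higher against replicate 1 and 1 (Hk2) as lower, beside 17.7% and 20.1% of all genes. Against replicate 2, 0 of the 13 passed as higher and 3 (Slc2a1, Pfkp and Eno1) as lower, beside 15.1% and 17.6% of all genes.

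**Figure D3:**
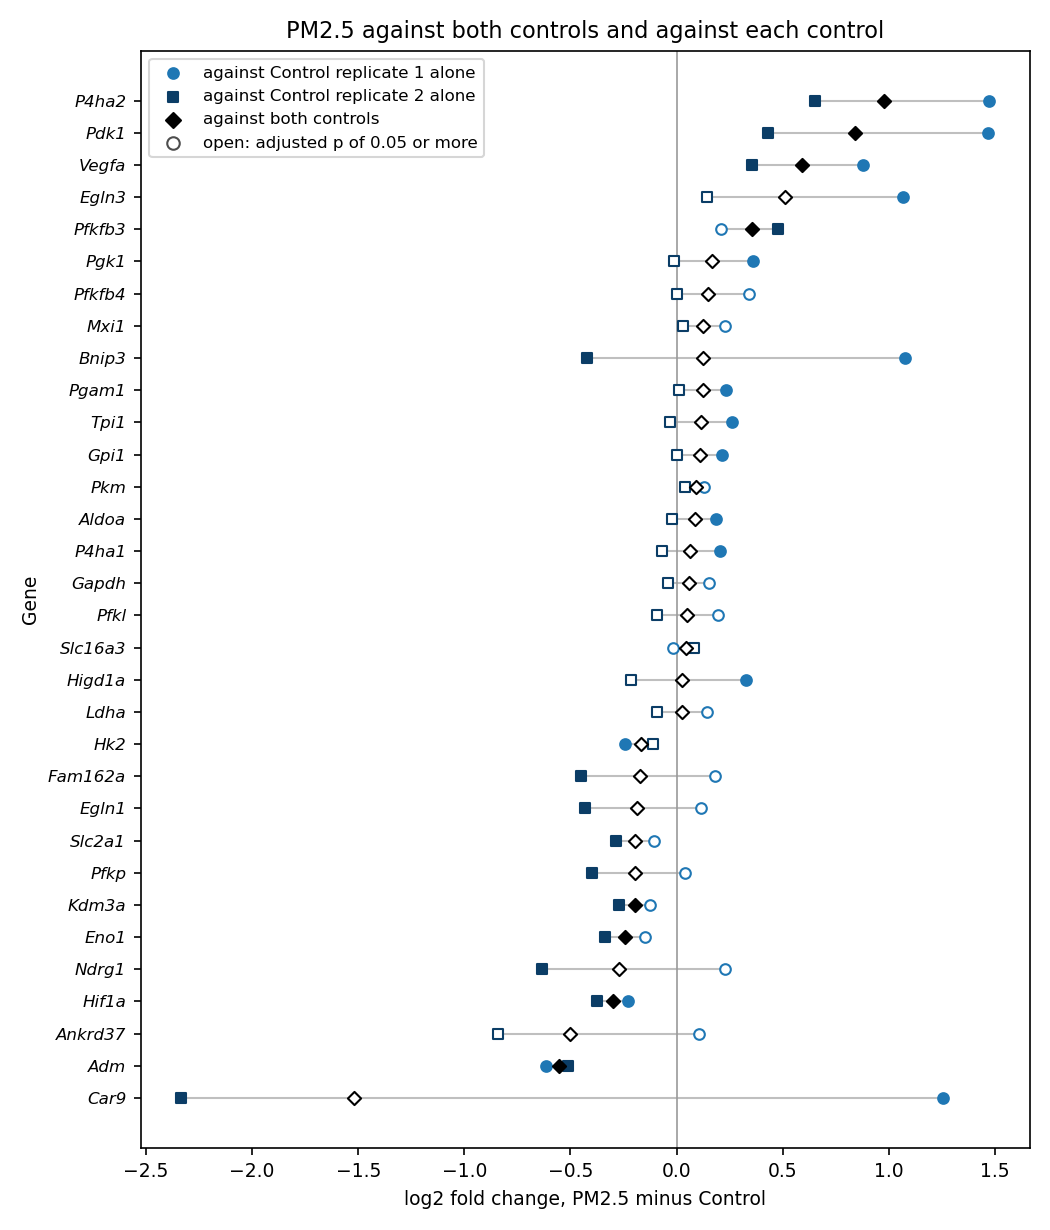
Log2 fold change of PM2.5 minus Control (x axis) for each tested member (y axis), against both controls (diamonds), Control replicate 1 alone (circles) and Control replicate 2 alone (squares), with open symbols for an adjusted p of 0.05 or more. Car9 and Bnip3 have filled symbols on both sides of 0, while P4ha2, Pdk1 and Vegfa stay to the right and Hif1a and Adm to the left.

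The difference between the controls was set beside that of all genes. Control replicate 2 was the higher control in 28 of the 32 members tested, beside 50.8% of all genes. It was at least 1.5-fold higher in 8 members (25% of those tested, beside 4.3% of all genes) and at least 2-fold higher in 3 members, Car9, Bnip3 and Pdk1 (9.38%, beside 1.7%). No member was at least 1.5-fold higher in Control replicate 1, a direction taken by 1.83% of all genes, or 0.705% at 2-fold. The median log2 difference, replicate 2 minus replicate 1, was 0.28 over the members and 0.00294 over all genes tested. With 1 library on each side this difference carries no test, and whether it came from the cultures, the RNA or the libraries was not tested.

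Ranked by this ratio among the 9309 genes that averaged at least 10 CPM, Car9 came first, Bnip3 in place 3, Pdk1 in place 9, Egln3 in place 16, Ndrg1 in place 19 and P4ha2 in place 21. The 30 members in this ranking took 11 of the first 100 places. At the other end, Adm, Hk2 and Pfkfb3 came in places 7302, 7922 and 9125. Of the 30 members, 24 lay in the first 931 places, or 10% of the ranking. The genes of the glucose chain other than Hk2 lay between place 100 (Pfkp) and place 2008 (Pkm). Car9 reached the mean of 10 CPM through Control replicate 2.

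Between the PM2.5 libraries, replicate 2 was the higher in 30 of the 32 members, beside 50.3% of all genes, and the median log2 difference was 0.12 over the members and 0.000892 over all genes tested. Control replicate 1 was the lowest of the 4 libraries in 23 members (71.9%, beside 31% of all genes). Control replicate 2, the higher control, was the deepest library, and PM2.5 replicate 2, the higher of its pair, was the shallowest. The part of depth in these differences was not tested.

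**Figure D4:**
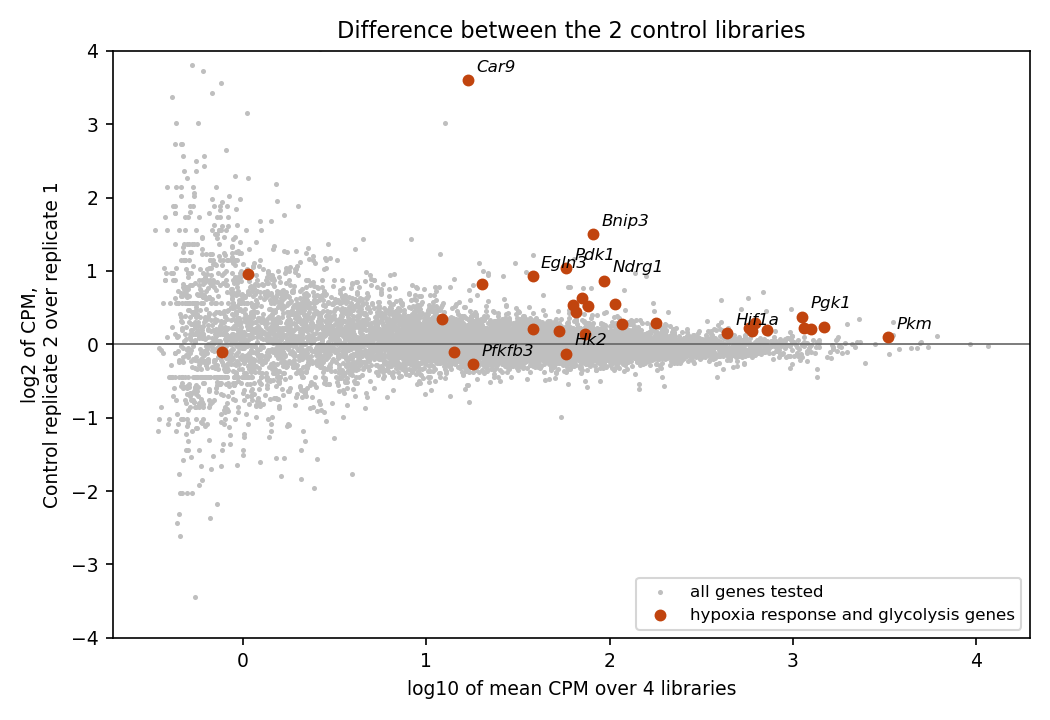
Log2 ratio of Control replicate 2 to Control replicate 1 (y axis) against the log10 of mean CPM over the 4 libraries (x axis), for all genes tested (grey) and the hypoxia response and glycolysis genes (orange); 23 genes with 0 counts in a control and 4 beyond the axis range are not drawn. Car9, Bnip3, Pdk1, Egln3 and Ndrg1 lie well above genes of like abundance, while Hif1a, Hk2 and Pkm lie near 0.

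Other genes of the same pathways were taken from lists. Of 26 tested HIF targets outside the group, 5 passed as higher and 4 as lower, beside 19.2% and 20.4% of all genes, with a median log2 fold change of 0.00984. Stc1, a secreted glycoprotein hormone, was at 2.73 and 2.79 CPM in the controls and at 44.4 and 53.3 CPM in the PM2.5 libraries (log2 fold change 4.14, adjusted p = 3.661e-08). Ddit4, an inhibitor of mTOR signalling, rose (log2 fold change 0.63, adjusted p = 0.000346), as did Pdgfb, a growth factor chain (0.89, adjusted p = 0.000911), and the hydroxylase Jmjd6 fell (-0.37, adjusted p = 0.00284). Control replicate 2 was the higher control in 21 of these 26 genes, beside 50.8% of all genes. In 3 of them it was at least 1.5-fold higher, beside 4.3% of all genes: Bnip3l, the closest relative of Bnip3 (1.68-fold), the disulfide-bond enzyme Ero1a (1.97-fold) and the glycogen branching enzyme Gbe1 (1.97-fold).

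Among 12 tested genes of the oxygen-sensing machinery, 2 passed as higher and 4 as lower, beside 19.2% and 20.4% of all genes, with a median log2 fold change of -0.07 and a median difference between the controls of -0.03. Cited2, which competes with HIF for its coactivators, fell (-0.53, adjusted p = 0.000447), and the coactivator Ep300 rose (0.27, adjusted p = 0.00396). Arnt2, a partner subunit of HIF alpha, rose from 4.58 and 4.42 CPM in the controls to 7.13 and 7.22 CPM in the PM2.5 libraries (0.68, adjusted p = 0.00595). Elob, a subunit of the ubiquitin ligase that removes HIF alpha, fell (-0.25, adjusted p = 0.00594).

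In 16 tested glycolysis genes outside the group, 3 passed as higher and 2 as lower, beside 19.2% and 20.4% of all genes, with a median log2 fold change of 0.08. Eno2, the neuronal enolase, rose from 4.21 and 6.40 CPM to 11.9 and 12.5 CPM (1.17, adjusted p = 0.000465), and Eno3, the muscle enolase, fell (-0.46, adjusted p = 0.00133). Ldhb, the subunit that favours lactate oxidation, rose (0.52, adjusted p = 0.00917), as did the ADP-dependent glucokinase Adpgk (0.39, adjusted p = 0.00145).

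For the entry of pyruvate into the mitochondria, 13 genes were tested, of which 3 passed as higher and 4 as lower, beside 19.2% and 20.4% of all genes. Pdk4, another pyruvate dehydrogenase kinase, rose from 8.78 and 7.45 CPM to 16.8 and 16.4 CPM (1.05, adjusted p = 0.000104). The phosphatases that undo their mark, Pdp1 and Pdp2, both fell (-0.62, adjusted p = 0.000117, and -0.76, adjusted p = 6.279e-05), and the pyruvate carboxylase Pcx rose (0.43, adjusted p = 0.000341). The controls lay closer together in these 4 genes than in Pdk1, at 57.95 and 58.1 CPM for Pcx and 56.6 and 61.6 CPM for Pdp1. In 17 tested genes of the pentose phosphate and glycogen pathways, 1 passed as higher and 3 as lower, beside 19.2% and 20.4% of all genes, among them the glycogen precursor enzyme Ugp2 (-0.37, adjusted p = 0.000908) and the transketolase Tkt (-0.23, adjusted p = 0.00754).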

How the data were processed

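The authors deposited raw, unnormalized counts for each gene and, beside them, RPKM values, which divide counts by gene length and library size. The headers also name a larger count, total gene reads, without defining it. Gene positions are on GRCm39, per the submitters' processing notes. Aligner, counting program and use of strand were not given in the sources used here, so overlapping genes and near-identical copies may share reads.

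The members and the lists were chosen with earlier results of these data known. Counts of the 4 libraries were tested with edgeR 4.0.16 in R 4.3.3: filterByExpr kept 12478 genes, TMM scaled the libraries, and the quasi-likelihood F test contrasted PM2.5 and Control without pairing. P-values were adjusted by Benjamini-Hochberg over all genes tested, at a threshold of 0.05, and other tools are named where used. CPM values carry the TMM scaling, and a count of 3 equals 0.116 to 0.158 CPM, depending on the library. SE denotes the standard error of a log2 fold change. An exact permutation test of 2 libraries against 2 cannot go below 0.333, so none was used. The fits were first tested on simulated data. From each list the text names up to 4 called genes with the smallest p-values. Alternatives were other scalings, other filters, DESeq2 1.42.0, limma 3.58.1 (voom, and trend on log2 of RPKM plus 0.1 or 1), the deposited total gene reads, a replicate block, leaving out each library, and setting each gene against its chromosome or its 25 tested neighbours on each side.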

Additional observations from a re-analysis of the deposited data

How the results depend on the processing

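Over the alternatives run for the log2 fold change of each member, 479 values kept the direction and the side of the threshold, 27 newly passed, 33 no longer passed and 36 changed sign. The cause was not tested in any of these cases. With 2 libraries a group, single libraries decided many calls.

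Leaving out each library in turn gave 3110 to 4842 genes called, 1492 to 2267 higher and 1618 to 2575 lower. It gave 3 to 13 members called higher and 2 to 11 lower. Counts in the lists were 1 to 2 higher and 2 to 3 lower for oxygen sensing, 5 to 11 higher and 2 to 7 lower for other HIF targets, 1 to 3 lower for other glycolysis, 2 to 4 lower for pyruvate entry, and 0 to 2 higher and 1 to 5 lower for the pentose phosphate and glycogen branches. Log2 fold changes that changed sign ranged from -0.43 to 0.12 (Egln1), -0.090 to 0.20 (Pfkl), -0.40 to 0.038 (Pfkp), -0.019 to 0.19 (Aldoa), -0.028 to 0.26 (Tpi1), -0.038 to 0.15 (Gapdh), -0.013 to 0.36 (Pgk1), -0.091 to 0.14 (Ldha), -0.018 to 0.083 (Slc16a3), -0.42 to 1.08 (Bnip3), -0.21 to 0.33 (Higd1a), -0.45 to 0.18 (Fam162a), -2.33 to 1.26 (Car9), -0.070 to 0.21 (P4ha1), -0.84 to 0.10 (Ankrd37) and -0.64 to 0.23 (Ndrg1).

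DESeq2 called 1391 genes higher, 1 member higher, 1 oxygen sensing gene higher and 2 other HIF targets lower. With no filter, 1912 genes and 2 members were called higher, and 2398 genes and 2 other HIF targets lower. Library size only gave 3090 genes higher and 1889 lower, 2 members lower, and 8 other HIF targets higher and 2 lower. Upper-quartile scaling and limma-voom each gave 2 other HIF targets lower. With limma-trend on RPKM, 2321 genes were higher and 2058 lower at a pseudocount of 0.1, and 2267 and 2010 at a pseudocount of 1. At either pseudocount, 2 members were higher and 2 lower, and 2 oxygen sensing genes and 2 other HIF targets were lower. The pentose phosphate and glycogen list had 0 genes called higher by edgeR with no filter, on total gene reads and against neighbours, and 0 by DESeq2. At an unadjusted p under 0.05 these were 1, 1, 0 and 1.

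Set against neighbours, 1 of the 32 members was called lower, beside 2009 of 12478 genes, and against the chromosome 2, beside 2128. In both, 1 oxygen sensing gene was lower, and against the chromosome 8 other HIF targets were higher. Signs changed against neighbours and the chromosome for Pgam1 (-0.10, -0.078), Fam162a (0.083, 0.094), Ldha (-0.017, -0.0035), Higd1a (-0.068, -0.011) and Mxi1 (-0.0077, -0.074), against neighbours for Egln1 (0.13), Pkm (-0.0041) and P4ha1 (-0.0026), and against the chromosome for Slc2a1 (0.023). On total gene reads Ldha was at -0.015 and Higd1a at -0.020. Summing Eno1 with Eno1b was chosen after seeing the data.

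With the replicate number as a block, 5793 genes were called, 2819 higher and 2974 lower. Of the 32 members tested, 7 were higher and 9 lower. In the lists, 10 other HIF targets and 2 pentose phosphate and glycogen genes were higher. Without the block, 4 members were called higher and 4 lower, beside 2399 and 2540 of all genes. Calls of members and of all genes thus both rose with this choice. Nothing in the labels says what a number stands for, and the main fit did not pair the libraries. The deviations of same-numbered libraries correlated at 0.124 over 12478 genes. Among the 32 members tested, replicate 2 was the higher library in 28 in Control and in 30 in PM2.5. The shares of all genes were 50.8% and 50.3%. Whether same-numbered libraries shared more than a number was not tested.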

Other observations

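The genes that differed most between the controls, among those averaging at least 10 CPM, were read off the ranking after their values were seen. Beside Car9, Bnip3 and Pdk1, the first 9 places held Vnn1, Steap4, Hmgn2-ps, the cytokine Il33, Slc6a2 and Tnfrsf9. Vnn1, in place 2, was at only 0.0526 and 0.427 CPM in Control replicates 1 and 2. Il33, in place 6, was at 46.1 CPM in Control replicate 1 and 103 CPM in Control replicate 2. Tenm4 and Gm42715 stood in places 10 and 11. Gbe1 and Ero1a, both known HIF targets, stood in places 12 and 13. At the other end, Ccn1, a matricellular protein and a target of YAP signalling, had 77.4 CPM in Control replicate 1 and 39.1 CPM in Control replicate 2 and took the last of 9309 places. These are ratios of 2 libraries and carry no test.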
